A study of Mus musculus with 18 samples.

Results

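The numbered zinc finger protein genes are the mouse genes whose symbol is Zfp followed by digits, here without Zfp36, which codes for an RNA-binding protein of another zinc finger type. The deposited table held 373 of them among 54446 genes, and the 207 whose normalized counts averaged 10 or more over all 18 libraries were the members described here. They were chosen by that mean alone. It was 11.02 for Zfp382, 10.7 for Zfp974 and 10.4 for Zfp932, the last members inside the threshold, and 9.71 for Zfp3, 9.70 for Zfp772 and 9.69 for Zfp324, the first genes outside it. Of the 166 genes left out, 22 were listed at 0 in every library. All 207 members are annotated as protein coding. Of these, 188 were above 0 in every library, and 4 (Zfp446, Zfp287, Zfp974 and Zfp932) passed the mean of 10 only through the group in which they were highest.

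Eosinophils were taken from the peritoneal cavity of Il5Tg mice (strain C57BL/6 in the labels), which carry an interleukin-5 transgene and make eosinophils in excess. T and B cells were removed with antibody beads beforehand. In all 6 groups the cells were cultured with apoptotic cells (ACs), thymocytes killed with dexamethasone, and eosinophils were then selected again with beads against Siglec-F before RNA was taken. Each group had 3 libraries. In the Type 1 experiment 1 group had ACs alone, and the others had, beside ACs, E. coli (E. coli + ACs), IFN-γ (IFN-γ + ACs) or both (IFN-γ + E. coli + ACs). In the IL-4 experiment they were ACs alone and IL-4 + ACs. RNA was sequenced from the 3′ end of transcripts (CEL-Seq2), so a gene's count does not scale with transcript length, and the normalized count is a gene's read number after division by the size factor of its library. Each stimulus was compared with the ACs of its own experiment to ask which members changed when cells that had met apoptotic cells were also given a Type 1 or a Type 2 signal. Eosinophils cultured without apoptotic cells were not analysed here.

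Most of these genes code for C2H2 zinc finger proteins, in which repeated fingers, each held around a zinc ion, read DNA. Many also carry a KRAB domain, which recruits the scaffold Trim28 (KAP1) and with it histone H3 lysine 9 methylation, HP1 proteins and DNA methylation, and their best known targets are transposable elements and imprinted regions. KRAB genes lie in clusters of similar copies that arose by duplication. Members without KRAB include activators, co-repressors, RNA-binding proteins and ubiquitin ligases.

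A KRAB domain was looked for in the translated coding sequence of each member (GRCm38, GENCODE M21), by counting matches at 18 positions of the core of its A box. The 102 members with at least 11 matches, here 11 to 18, were called KRAB members, and the other 105 had 2 to 9. Those 105 are the members said below to be without KRAB. A KRAB domain whose A box departs from this core would be counted among them. Zfp746 had 9 matches, and Zfp956, which was higher with IFN-γ, had 7. KRAB members had a median of 11 fingers (2 to 33) and the others a median of 7 (0 to 33). To show what the KRAB members share, the stretch of 111 bases that codes for the A box is given for the 4 that fell most with IFN-γ + E. coli + ACs among the members named (Zfp61, Zfp930, Zfp994 and Zfp788), for Zfp160 and Zfp959, whose change with both stimuli differed from the sum of the single changes, and for Zfp386, the KRAB member with the highest mean. Capitals mark the codons that match the core. The stretches are read 5′ to 3′ on the coding strand of GRCm38, each within 1 coding exon, and lie at chr7:24294965-24295075 (- strand), chr8:69226349-69226459 (+), chr17:22202686-22202796 (-), chr7:41647497-41647607 (+), chr17:21020078-21020188 (+), chr17:55895827-55895937 (+) and chr12:116054728-116054838 (+), in that order.
Zfp61: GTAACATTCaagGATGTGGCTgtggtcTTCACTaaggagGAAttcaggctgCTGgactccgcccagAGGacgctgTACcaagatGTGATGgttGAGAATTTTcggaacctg
Zfp930: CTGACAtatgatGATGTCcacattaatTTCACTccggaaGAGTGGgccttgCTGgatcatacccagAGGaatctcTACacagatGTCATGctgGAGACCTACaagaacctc
Zfp994: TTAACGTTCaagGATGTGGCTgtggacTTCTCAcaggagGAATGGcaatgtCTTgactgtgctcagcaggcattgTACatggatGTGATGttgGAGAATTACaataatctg
Zfp788: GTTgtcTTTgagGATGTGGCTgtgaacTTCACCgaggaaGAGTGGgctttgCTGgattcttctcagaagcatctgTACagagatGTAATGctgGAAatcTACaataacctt
Zfp160: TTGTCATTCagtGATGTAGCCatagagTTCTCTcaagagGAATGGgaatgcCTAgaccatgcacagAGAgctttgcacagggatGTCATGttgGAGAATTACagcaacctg
Zfp959: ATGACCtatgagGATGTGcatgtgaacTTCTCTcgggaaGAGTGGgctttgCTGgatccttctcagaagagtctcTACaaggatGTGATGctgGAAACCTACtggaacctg
Zfp386: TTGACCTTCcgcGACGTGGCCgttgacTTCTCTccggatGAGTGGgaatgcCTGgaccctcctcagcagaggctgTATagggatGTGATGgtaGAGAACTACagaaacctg
Zfp61, Zfp994, Zfp160 and Zfp386 matched at 17 of the 18 positions, Zfp930 at 16, and Zfp788 and Zfp959 at 15. Base identity between pairs ranged from 57.7% for Zfp930 and Zfp994 to 79.3% both for Zfp930 and Zfp959 and for Zfp788 and Zfp959. Reads from near-identical copies can be lost or split when only reads that map to 1 place are counted, so the counts of clustered KRAB members are uncertain to that extent.

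The members were expressed at low levels. Their median normalized count over the 18 libraries was 49.8 (quartiles 24.9 and 88.0), against 93.6 over the 10414 genes that reached a mean of 10. There were 43 members at 100 or more and 104 under 50. Together they made up 0.402% to 0.532% of the normalized counts of a library. The share was 0.517% ± 0.0159 (SD, n = 3) in ACs of the Type 1 experiment, 0.478% ± 0.0177 with E. coli, 0.422% ± 0.0187 with IFN-γ and 0.489% ± 0.0125 with both. In the IL-4 experiment it was 0.470% ± 0.0266 in ACs and 0.444% ± 0.0254 with IL-4. KRAB members were lower than the others, with a median of 36.1 against 72.3, and 9 KRAB members against 34 others reached 100.

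The highest member by far was Zfp217, whose protein works with the CtBP and CoREST co-repressors, at a mean of 2816 and between 2032 and 3800 in single libraries. It was followed by Zfp710 at 892, Zfp746 (PARIS, a substrate of the ubiquitin ligase Parkin) at 732, Zfp207 (BuGZ, a spindle protein that binds Bub3) at 520, Zfp622 (a factor of large ribosomal subunit maturation) at 452, Zfp263 at 444, Zfp292 at 411 and Zfp386 at 392. Zfp91 (a ubiquitin ligase of noncanonical NF-κB signalling) had a mean of 306, Zfp445 (a KRAB protein that protects imprints) also 306, Zfp706 299 and Zfp704 280. Of these 12, Zfp292 rose and Zfp386 fell past the threshold under at least 1 stimulus. Zfp217 measured 2528, 2698 and 2484 in ACs and 3698, 2946 and 3800 with both stimuli, a log2 change of 0.43 (SE 0.12, limma adjusted p = 0.00943) that fell short of 1.5-fold. Zfp207, which no stimulus moved past the threshold, kept between 398 and 619 in all 18 libraries.

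A member was counted as higher or lower when limma gave a Benjamini-Hochberg adjusted p under 0.05 over all genes tested and the change was at least 1.5-fold, on the scale of log2 of the normalized count plus 1. The added 1 shrinks the changes of low members. A library without reads can instead enlarge them, since means are taken over log values. By this rule 58 members changed under at least 1 stimulus and 149 under none. The share of all genes that changed under at least 1 stimulus was not computed, so these counts do not set the members apart from other genes. Shares of all genes are given below for each comparison. Because the RNA is that of many selected cells together, fewer cells of a type and less RNA per cell cannot be told apart in any of these changes.

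IFN-γ + E. coli + ACs moved the most members. Of the 204 tested, 14 (6.86%) were higher and 29 (14.2%) lower, against 14.7% and 17.2% of all 10166 genes tested. The share of rises was below the background and that of falls nearer to it. The median log2 change was -0.16 over the members and -0.05 over all genes, and 60.8% of members against 52.6% of all genes were below 0. The groups did not overlap for 77 members (37.7%), against 48.8% of all genes. With the libraries rescaled to a common upper quartile, the split was 9 higher and 40 lower, and the median of all genes itself moved by -0.14.

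The rises were led by Zfp503, Zfp800, Zfp281, Zfp292, Zfp654 and Zfp143, none of which reached the 11 matches of a KRAB member. Zfp281 (ENSMUSG00000041483.14, chr1:136624901-136630053, + strand), a regulator of pluripotent cells with 3 fingers, measured 189.5, 192.4 and 227.5 in ACs, 259.5, 258.3 and 207.6 with E. coli, 348.2, 315.2 and 363.2 with IFN-γ, and 689.9, 547.2 and 698.1 with both. Each library with both stimuli was above each with IFN-γ alone, and those were above every library without IFN-γ. The mean rose from 203 ± 21.2 to 645 ± 84.8 (SD, n = 3), a log2 change of 1.66 (SE 0.15, limma adjusted p = 3.79e-08). In the IL-4 experiment Zfp281 stood at 117.3, 122.2 and 101.9 in ACs and 132.7, 134.4 and 102.8 with IL-4, so those groups overlapped.

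Zfp800 (ENSMUSG00000039841.14, chr6:28239927-28398005, - strand) measured 52.86, 47.86 and 45.67 in ACs, 65.3, 80.94 and 57.18 with E. coli, 121.3, 157.0 and 190.8 with IFN-γ, and 173.9, 146.6 and 171.1 with both. Its levels with IFN-γ and with both overlapped, and both sets lay above all libraries without IFN-γ. The log2 change was 1.64 (SE 0.20, limma adjusted p = 5.31e-06) with IFN-γ and 1.73 (SE 0.20, adjusted p = 1.85e-06) with both. Zfp292 (ENSMUSG00000039967.14, chr4:34803113-34882960, - strand), a large protein with 14 fingers, measured 200.9, 250.6 and 333.6 in ACs, 190.0, 306.6 and 242.8 with E. coli, 432.6, 518.1 and 570.5 with IFN-γ, and 688.5, 630.3 and 710.5 with both. It rose by 0.97 (SE 0.19, limma adjusted p = 0.000564) with IFN-γ and by 1.40 (SE 0.19, adjusted p = 7.69e-06) with both on the log2 scale.

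Zfp503, which codes for a co-repressor of the NET family in which no C2H2 finger was found here, was the member higher in all 3 Type 1 comparisons. It measured 29.27, 10.32 and 8.97 in ACs, 60.27, 28.61 and 41.34 with E. coli, 48.8, 42.41 and 80.03 with IFN-γ, and 35.64, 53.75 and 66.23 with both. The ACs library at 29.27 lay above the lowest E. coli library, so those groups overlapped. The log2 changes were 1.497 (SE 0.41, limma adjusted p = 0.0179) with E. coli, 1.89 (SE 0.41, adjusted p = 0.0016) with IFN-γ and 1.77 (SE 0.41, adjusted p = 0.00188) with both. Its gene lies at chr14:21983959-21989601 on the - strand.

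Zfp654 and Zfp143 changed past the threshold when both stimuli were present and not with either alone. Zfp654 measured 53.67, 59.12 and 57.9 in ACs and 144.0, 134.4 and 161.4 with both, a log2 change of 1.35 (SE 0.26, limma adjusted p = 0.000468). Zfp143, an activator of small nuclear RNA genes that binds at promoters, measured 69.12, 68.51 and 70.14 in ACs and 148.2, 149.0 and 126.9 with both, a log2 change of 1.02 (SE 0.27, limma adjusted p = 0.00546). Zfp106, Zfp131, Zfp276, Zfp384, Zfp407 and Zfp653 followed the same pattern of calls, with 8 members in all. The share of all genes with this pattern was not computed. That these members respond to the pair otherwise than to the single stimuli was not shown by those calls: the test of that difference is the interaction described further on.

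**Figure D1:**
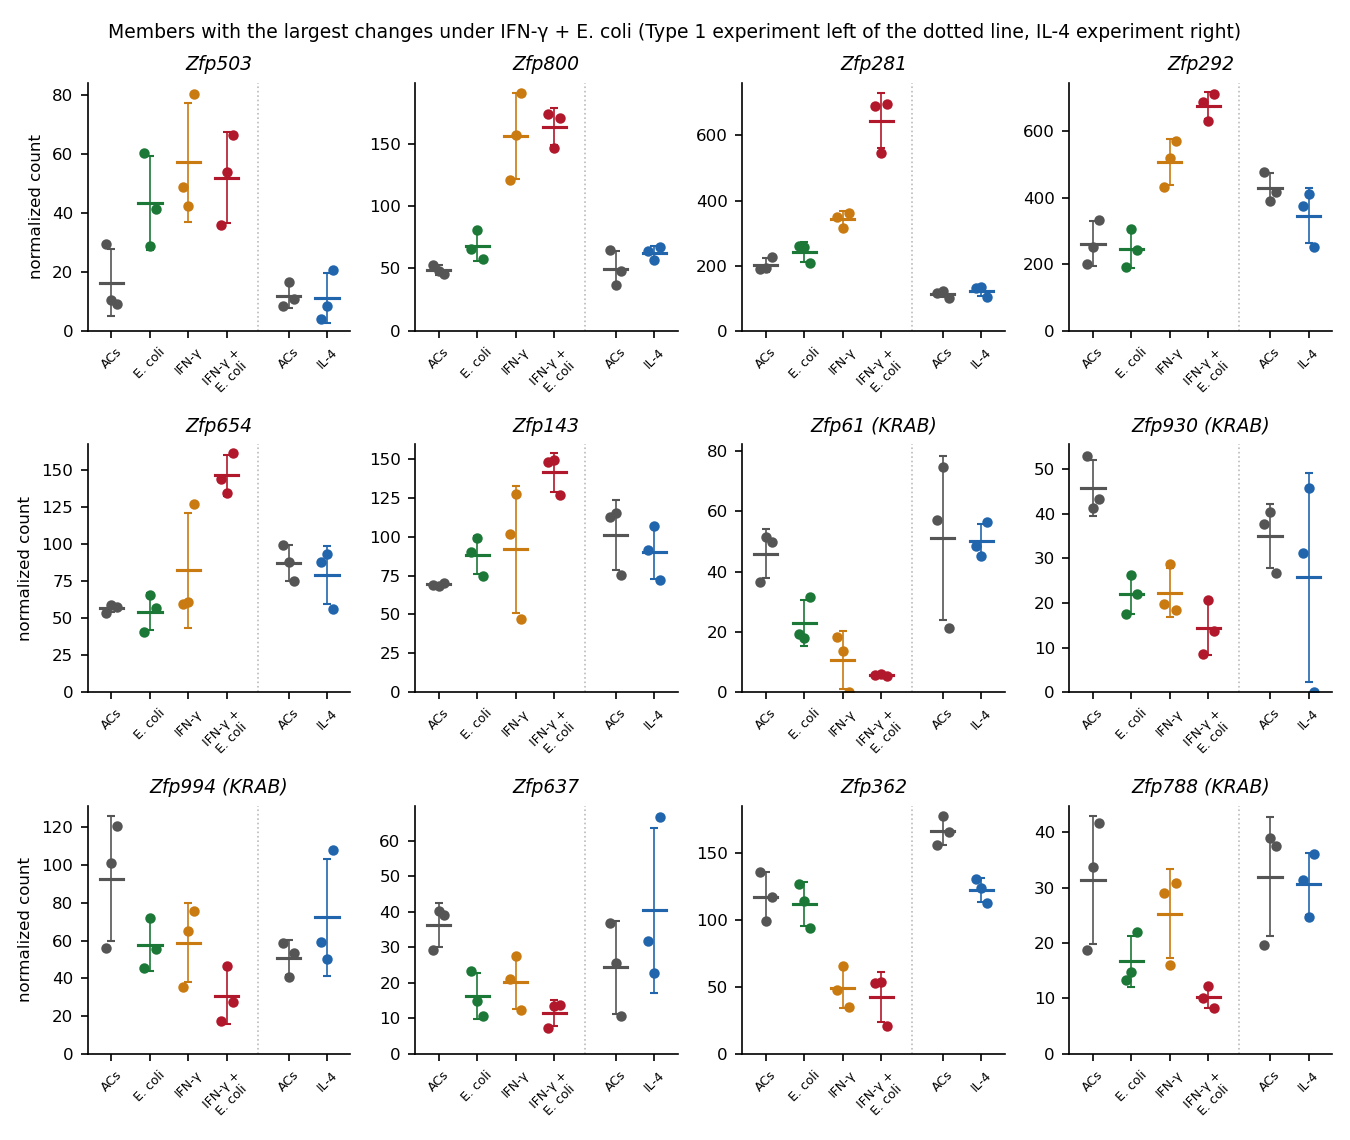
Normalized count (vertical axis, linear from 0) of the 6 members with the largest rises and the 6 with the largest falls under IFN-γ + E. coli + ACs, in each of the 6 groups. Points are libraries, bars the mean and whiskers the SD (n = 3), with the Type 1 experiment left of the dotted line and the IL-4 experiment right of it. Zfp281 reached 547 to 698 with both stimuli, and Zfp61 stood at 5.52 to 6.11 there.

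The falls with both stimuli were led by Zfp61, Zfp930, Zfp994, Zfp637, Zfp362 and Zfp788, of which Zfp61, Zfp930, Zfp994 and Zfp788 carry the KRAB boxes printed above. Zfp61 (ENSMUSG00000050605.17, chr7:24291039-24301232, - strand, 8 fingers) measured 36.59, 51.62 and 49.75 in ACs, 19.25, 17.99 and 31.67 with E. coli, 18.47, 13.75 and 0 with IFN-γ, and 5.70, 6.11 and 5.52 with both. All 6 libraries with IFN-γ lay below all 3 ACs libraries, and the lowest values amount to a few reads. The log2 change was -2.82 (SE 0.75, limma adjusted p = 0.00846) with IFN-γ and -2.78 (SE 0.75, adjusted p = 0.00641) with both. The change with IFN-γ rests in part on replicate 3, at 0, the library with the fewest reads in that experiment. In the IL-4 experiment Zfp61 measured 57.15, 74.74 and 21.45 in ACs and 48.67, 45.31 and 56.54 with IL-4.

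Zfp930 (ENSMUSG00000059897.5, chr8:69209038-69230536, + strand, 12 fingers) measured 52.86, 41.29 and 43.22 in ACs, 17.58, 26.16 and 21.99 with E. coli, 19.79, 28.66 and 18.47 with IFN-γ, and 8.55, 20.77 and 13.8 with both. Every stimulated library of the Type 1 experiment was below every ACs library, and the change passed the threshold with IFN-γ (log2 -1.02, SE 0.36, limma adjusted p = 0.039) and with both (-1.68, SE 0.36, adjusted p = 0.000985). Both calls were lost when all 18 libraries were fitted together. Zfp994 (ENSMUSG00000096433.2, chr17:22197265-22225616, - strand, 17 fingers) measured 56.11, 101.4 and 120.7 in ACs and 17.11, 46.42 and 27.59 with both, a log2 change of -1.62 (SE 0.36, limma adjusted p = 0.00156). Zfp788 (chr7:41633203-41651530, + strand, 23 fingers) measured 18.7, 33.79 and 41.59 in ACs and 9.98, 12.22 and 8.28 with both, a log2 change of -1.48 (SE 0.40, limma adjusted p = 0.00666).

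Of the members without KRAB, Zfp362 (chr4:128773088-128806045, - strand) measured 135.8, 99.48 and 117.4 in ACs, 127.2, 114.5 and 94.12 with E. coli, 47.49, 65.33 and 34.89 with IFN-γ, and 52.74, 53.75 and 20.7 with both. The libraries thus separated by IFN-γ and not by E. coli, with log2 changes of -1.27 (SE 0.31, limma adjusted p = 0.0047) and -1.56 (SE 0.31, adjusted p = 0.00058) for IFN-γ and for both. Zfp637 (chr6:117841180-117845956, + strand) measured 29.27, 40.35 and 39.15 in ACs and 7.13, 13.44 and 13.8 with both (log2 -1.62, SE 0.41, limma adjusted p = 0.00441). In the KRAB member with the highest level, Zfp386, the fall was smaller, from 500.1, 514.3 and 437.9 in ACs to 260.9, 235.8 and 424.9 with both (log2 -0.70, SE 0.19, limma adjusted p = 0.00734).

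IFN-γ + ACs moved 7 members (3.43%) up and 19 (9.31%) down of the 204 tested, against 11.4% and 9.96% of all genes. Members were below 0 in 70.1% of cases and all genes in 50%, with medians of -0.24 and 0 on the log2 scale. The groups did not overlap for 54 members (26.5%), against 42.9% of all genes. With IFN-γ and with both stimuli the same 5 members were higher (Zfp281, Zfp292, Zfp503, Zfp513 and Zfp800) and the same 11 lower (Zfp113, Zfp235, Zfp362, Zfp398, Zfp422, Zfp61, Zfp831, Zfp839, Zfp930, Zfp934 and Zfp951). The 2 comparisons share their ACs libraries and the IFN-γ. The share of all genes called in both comparisons was not computed, so these counts are not a result particular to the members. With the upper quartile scaling the split was 4 higher and 25 lower. Without replicate 3 of ACs it was 4 and 9.

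A further 4 of the members named changed with IFN-γ. Zfp956 measured 87.01, 84.46 and 71.77 in ACs and 163.6, 113.5 and 108.8 with IFN-γ (log2 0.64, SE 0.20, limma adjusted p = 0.0259), and Zfp397 rose by 0.65 (SE 0.24, adjusted p = 0.0477). Those calls were the ones lost with the upper quartile scaling among the 6 leading rises. Zfp235, a KRAB member, measured 34.15, 48.8 and 66.06 in ACs and 18.47, 12.61 and 22.57 with IFN-γ (log2 -1.41, SE 0.39, limma adjusted p = 0.0109). Zfp398, a KRAB member, fell from 86.2, 106.0 and 102.8 to 60.68, 55.02 and 30.78 with IFN-γ and to 39.91, 45.2 and 40.01 with both, without overlap, with log2 changes of -1.05 (SE 0.25, limma adjusted p = 0.00368) and -1.21 (adjusted p = 0.000698).

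E. coli + ACs moved 3 members (1.47%) up and 5 (2.45%) down of 204, against 5.05% and 5.25% of all genes, so both shares were below the background. The median was -0.15 over the members and -0.004 over all genes, with 66.2% and 50.5% below 0, and the groups did not overlap for 62 members (30.4%) against 38.3% of all genes. The 3 rises were Zfp503, Zfp672 and Zfp771, all without KRAB. Zfp672 measured 64.24, 39.42 and 38.33 in ACs and 80.37, 92.38 and 68.61 with E. coli (log2 0.78, SE 0.25, limma adjusted p = 0.0442). The 5 falls were Zfp141, Zfp160, Zfp395, Zfp950 and Zfp266. Zfp141 fell from 78.07, 89.16 and 84.0 to 39.35, 44.15 and 33.43 (log2 -1.09, SE 0.24, limma adjusted p = 0.00387), and its call was kept under every alternative run. Zfp950 measured 240.7, 376.3 and 349.9 in ACs and 180.0, 219.9 and 151.3 with E. coli (log2 -0.80, SE 0.23, adjusted p = 0.026), and Zfp266 61.8, 65.69 and 64.43 against 37.67, 41.69 and 33.43 (log2 -0.76, SE 0.24, adjusted p = 0.0416). With the upper quartile scaling 1 member was higher and 6 lower, edgeR and DESeq2 each called 11 lower, and without replicate 3 of ACs 1 call was left, a fall.

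When the members were divided by the match to the KRAB core, the calls of higher in limma were all on members with fewer than 11 matches. With both stimuli 0 of 101 KRAB members were higher and 19 lower, while 14 of 103 other members were higher and 10 lower. As shares, 18.8% of KRAB members were lower, near the 17.2% of all genes, and 13.6% of other members were higher, near the 14.7% of all genes. With IFN-γ the counts were 0 and 13 (12.9% lower, against 9.96% of all genes) for KRAB members and 7 and 6 for the others (6.8% higher, against 11.4%). With E. coli they were 0 and 4 (4.0% lower, against 5.25%) and 3 and 1 (2.9% higher, against 5.05%). At an unadjusted p under 0.05 in limma, 3 KRAB members were higher with both, 0 with IFN-γ and 1 with E. coli. In edgeR and in DESeq2, 1 KRAB member, Zfp719, was called higher with both (log2 0.93, adjusted p = 0.0389 in edgeR, and 0.95, adjusted p = 0.0351 in DESeq2), where limma gave 0.82 (SE 0.34, adjusted p = 0.066). Zfp52, at 0.66 in limma (SE 0.27, adjusted p = 0.0666), passed when replicate 2 of ACs or replicate 1 or 3 of IFN-γ was left out. The KRAB class was read from sequence, but was chosen with earlier results of these data known, and no test was made of the difference between the classes.

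The median log2 change of the KRAB members was -0.33 with E. coli, -0.33 with IFN-γ and -0.28 with both, and 84, 81 and 72 of the 101 tested were below 0. These comparisons share their ACs libraries, so a shift in those libraries would move all of them together. For the other members the medians were 0.006, -0.08 and -0.008, and the first of these turned negative (-0.03) with the upper quartile scaling. With IL-4 the medians were 0.02 for KRAB members and -0.09 for the others.

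**Figure D2:**
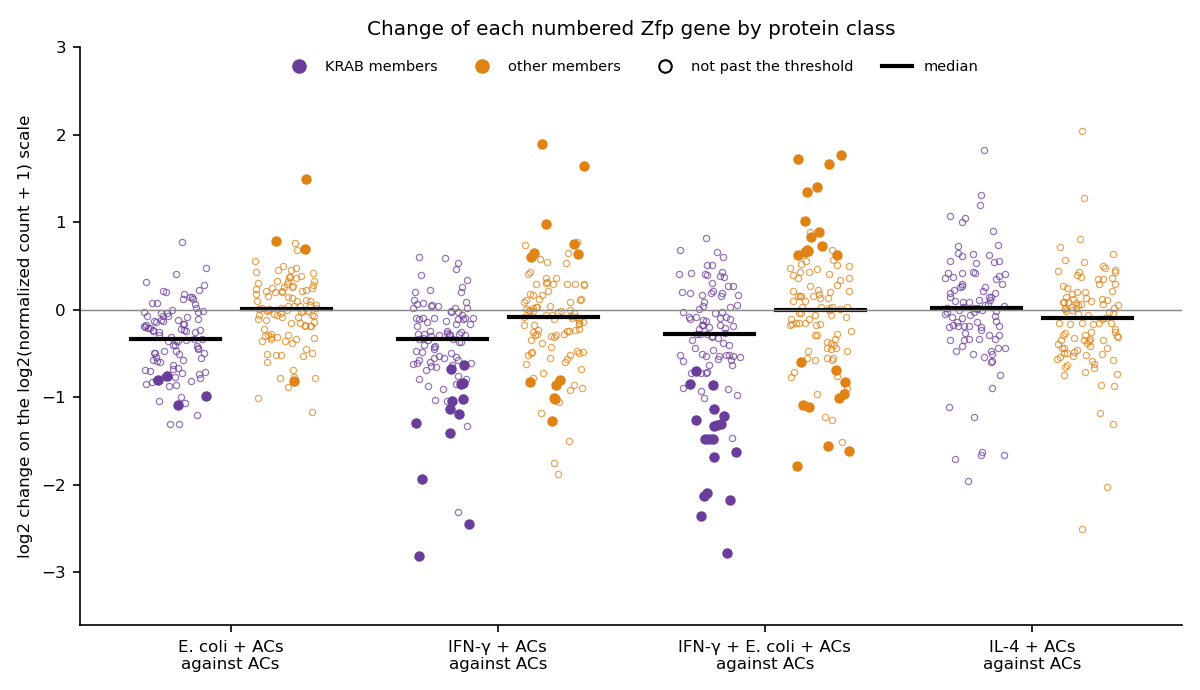
Log2 change of each member (vertical axis) under E. coli, IFN-γ, both and IL-4, each against the ACs of its own experiment, for KRAB members and other members. Filled points passed the threshold, open points did not, and black bars are medians. No filled KRAB point lies above 0, and no point is filled for IL-4.

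Level goes with class, so both were looked at together. Among all genes with a mean under 50, 6.1% were higher and 21.3% lower with both stimuli, with a median log2 change of -0.38, and among genes at 50 or more 18.8% were higher and 15.2% lower, with a median of 0.08. KRAB members under 50 were lower in 15 of 65 cases (23.1%) and had a median of -0.50, close to the share of lower genes at that level. KRAB members at 50 or more were lower in 4 of 36 cases (11.1%), with a median of 0.03, and 0 of 36 were higher. The other members at 50 or more were higher in 13 of 67 cases (19.4%), near the 18.8% of all genes at that level. With IFN-γ the KRAB members had medians of -0.47 under 50 and -0.28 at 50 or more, where all genes had -0.21 and 0.06, and 0 of 65 and 0 of 36 were higher. With IFN-γ KRAB members were lower in 12.3% under 50 and 13.9% at 50 or more, against 9.5% and 10.2% of all genes. With E. coli these shares were 1.54% and 8.33%, against 3.98% and 5.85%. The E. coli medians were -0.36 and -0.18 for KRAB members and -0.15 and 0.04 for all genes. The count of 0 rises held at both levels in limma, while edgeR and DESeq2 called Zfp719 higher with both. The part of level in the difference between the classes was not tested beyond these values.

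**Figure D3:**
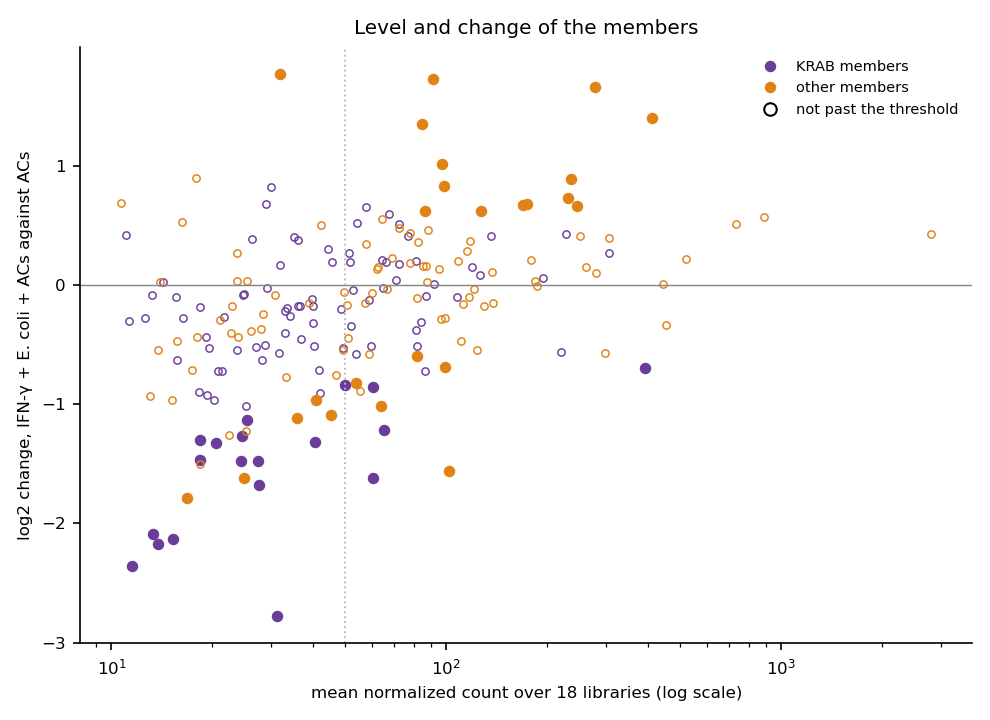
Mean normalized count over the 18 libraries (horizontal axis, log scale) and log2 change with IFN-γ + E. coli + ACs (vertical axis) of the 204 members tested. Filled points passed the threshold, and the dotted line marks a mean of 50. The filled points above 0 are members without KRAB, 13 of 14 at a mean of 50 or more, and 20 of the 29 filled points below 0 lie under 50.

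The interaction of IFN-γ and E. coli asks whether the change with both differs from the sum of the single changes on the log2 scale. It was above the threshold for 6 members (2.94%, against 3.16% of all genes) and below it for 1 (0.49%, against 4.28%). The median over the members was 0.29, against -0.03 over all genes, 30.4% of members and 52.1% of all genes were below 0, and 77 of 101 KRAB members were above 0. The ACs libraries enter the interaction with the opposite sign to the single changes, so these values are not independent of those changes. The largest value was that of Zfp959, a KRAB member of chromosome 17, which measured 152.9, 142.7 and 112.5 in ACs, 111.3, 105.5 and 90.6 with E. coli, 81.78, 41.26 and 67.72 with IFN-γ, and 118.3, 150.2 and 140.7 with both. It was therefore low with IFN-γ and back in the range of ACs when E. coli was added (interaction 1.54, SE 0.32, limma adjusted p = 0.00597). Zfp369, also a KRAB member, was low with each single stimulus and in the range of ACs with both. It measured 56.92, 52.55 and 69.32 in ACs, 32.65, 41.69 and 35.19 with E. coli, 31.66, 46.99 and 32.83 with IFN-γ, and 61.3, 53.75 and 57.95 with both (interaction 1.33, SE 0.35, limma adjusted p = 0.0231).

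Zfp395 and Zfp160 fell with E. coli alone and did not fall with the pair. Zfp395 measured 87.01, 88.22 and 118.3 in ACs, 45.21, 53.96 and 66.85 with E. coli, 106.8, 89.4 and 137.5 with IFN-γ, and 173.9, 147.8 and 143.5 with both. It was thus lower with E. coli (log2 -0.81, SE 0.21, limma adjusted p = 0.0144) and higher with both (0.67, SE 0.21, adjusted p = 0.0181), with an interaction of 1.31 (SE 0.30, adjusted p = 0.0117). Zfp160, a KRAB member, measured 97.58, 86.34 and 101.9 in ACs, 30.14, 58.05 and 61.57 with E. coli (log2 -0.98, SE 0.26, adjusted p = 0.0154), 114.8, 80.23 and 112.9 with IFN-γ, and 136.8, 96.5 and 154.5 with both. Its interaction was 1.30 (SE 0.37, limma adjusted p = 0.0353).

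The interaction was smaller for Zfp451, a SUMO ligase, at 1.104 (SE 0.26, limma adjusted p = 0.015), and for Zfp120, a KRAB member, at 0.82 (SE 0.22, adjusted p = 0.0308). Zfp771 went the other way. It measured 104.1, 121.1 and 73.4 in ACs, 149.0, 136.5 and 194.4 with E. coli, 146.4, 114.6 and 129.3 with IFN-γ, and 89.81, 109.9 and 67.61 with both, so that it was above ACs with E. coli (log2 0.69, SE 0.22, limma adjusted p = 0.0459) and overlapped ACs with the pair (interaction -1.25, SE 0.32, adjusted p = 0.0191). Left-out libraries moved the count of positive interactions between 3 (without replicate 3 of ACs or replicate 1 of E. coli) and 11 (without replicate 2 of IFN-γ + E. coli). With all 18 libraries in one fit, the calls of Zfp395, Zfp160, Zfp451 and Zfp120 were lost.

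**Figure D4:**
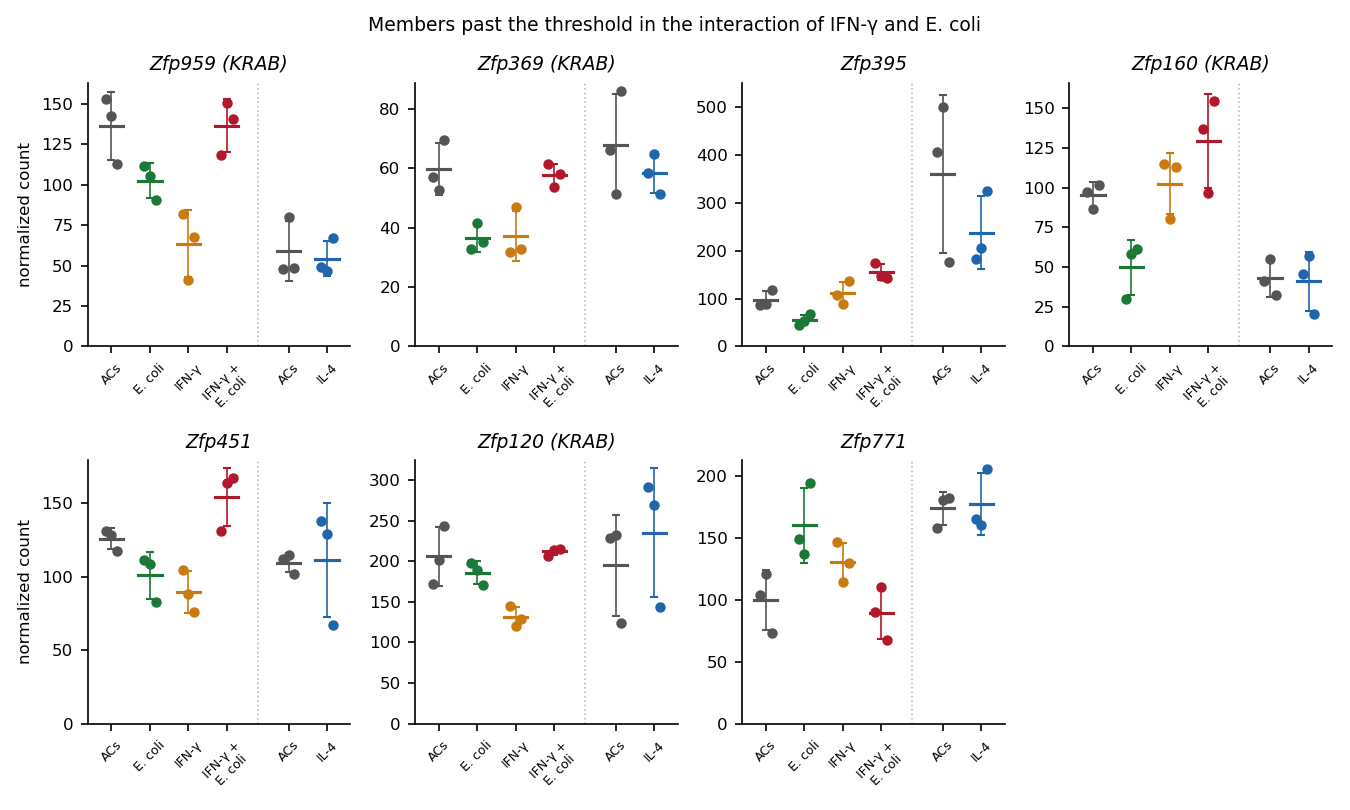
Normalized count (vertical axis, linear from 0) of the 7 members past the threshold in the interaction of IFN-γ and E. coli, by group. Points are libraries, bars the mean and whiskers the SD (n = 3), with the Type 1 experiment left of the dotted line. Zfp959 stood at 41.3 to 81.8 with IFN-γ and at 118 to 150 with both, and Zfp771 stood at 137 to 194 with E. coli and at 67.6 to 110 with both.

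IL-4 + ACs moved 0 of 202 members in limma, against 0.74% of all 10669 genes higher and 0.347% lower. At an unadjusted p under 0.05 there were 13 members in limma, 17 in edgeR and 11 in DESeq2, and edgeR and DESeq2 also called 0, with lowest adjusted p of 0.0695 and 0.254. The groups did not overlap for 25 members (12.4%), against 17.3% of all genes, with 7 higher and 18 lower (8.45% and 8.84% of all genes), and the change was below 0 for 51% of members and 51.1% of all genes. The lowest adjusted p in limma was that of Zfp358, which measured 72.19, 68.51 and 69.7 in ACs and 34.76, 34.25 and 46.26 with IL-4 (log2 -0.86, SE 0.26, adjusted p = 0.281). In this experiment replicate 3 of each group was shallow, with 779421 and 849705 reads, and 3 reads stand for a normalized count of 15.4 with IL-4 and 16.1 in ACs.

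Without those 2 libraries, 7 of 203 members passed the threshold in limma, against 3.25% of all genes higher and 2.93% lower. Zfp871 (log2 1.70, adjusted p = 0.00377), Zfp263 (0.67, adjusted p = 0.0145) and Zfp398 (0.65, adjusted p = 0.0465) were higher. Zfp395 (-1.21, adjusted p = 3e-04), Zfp740 (-1.01, adjusted p = 0.00312), Zfp358 (-1.01, adjusted p = 0.0164) and Zfp652 (-0.60, adjusted p = 0.0381) were lower. Zfp395 shows what those libraries change: it measured 405.3, 499.0 and 176.9 in ACs and 181.9, 206.0 and 323.8 with IL-4, so replicates 1 and 2 of the groups lay apart and replicate 3 went the other way.

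The difference between the change with IL-4 and the change with IFN-γ + E. coli, each against its own ACs, was positive past the threshold for 14 members (6.76%, against 9.67% of all 10414 genes) and negative for 16 (7.73%, against 10.8%). With the upper quartile scaling the split was 19 and 10, and the median of all genes moved by 0.13. Of the positive differences 8 were of KRAB members, and of the negative ones 15 were of others. The 6 largest negative ones were Zfp503 at -2.06 (SE 0.72, limma adjusted p = 0.0448), Zfp292 at -1.73 (SE 0.28, adjusted p = 0.000135), Zfp281 at -1.55 (SE 0.22, adjusted p = 2.75e-05), Zfp407 at -1.52 (SE 0.35, adjusted p = 0.00346), Zfp654 at -1.51 (SE 0.38, adjusted p = 0.00715) and Zfp276 at -1.39 (SE 0.26, adjusted p = 0.000448). All 6 rose with IFN-γ + E. coli. Zfp276 measured 83.76, 90.09 and 84.82 in ACs and 168.2, 151.5 and 142.1 with both, and in the IL-4 experiment 84.22, 91.09 and 85.78 in ACs and 59.09, 60.6 and 56.54 with IL-4.

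The positive differences were led by low members. Zfp692 measured 24.4, 15.02 and 21.2 in ACs and 0, 6.11 and 0 with both, and in the IL-4 experiment 39.1, 23.36 and 10.72 in ACs and 27.81, 22.13 and 30.84 with IL-4 (difference 3.73, SE 1.09, limma adjusted p = 0.0183). Its mean in the Type 1 experiment was under 10, so it was not tested there, and a fitted value that rests on libraries at 0 depends on the pseudocount. Zfp398 had values clear of 0. It fell with both stimuli, as given above, and measured 66.92, 62.28 and 26.81 in ACs of the IL-4 experiment and 103.1, 101.2 and 71.96 with IL-4, for a difference of 2.11 (SE 0.43, limma adjusted p = 0.00112). Zfp994 measured 58.65, 40.48 and 53.61 in those ACs and 59.09, 50.06 and 107.9 with IL-4, for a difference of 2.05 (SE 0.53, adjusted p = 0.00849). Zfp61 (2.92, SE 1.02, adjusted p = 0.046), Zfp637 (2.34, SE 0.68, adjusted p = 0.0176) and Zfp934 (3.48, SE 1.05, adjusted p = 0.0211) were the other named ones.

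**Figure D5:**
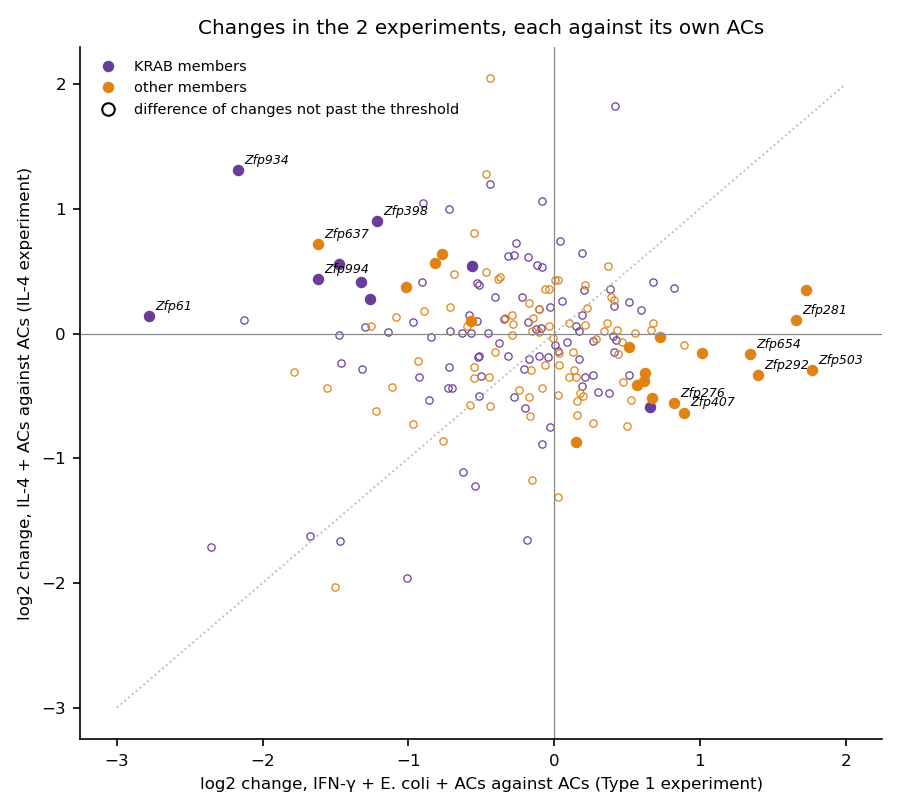
Log2 change with IFN-γ + E. coli + ACs (horizontal axis) and with IL-4 + ACs (vertical axis), each against the ACs of its own experiment, for the 199 members tested in both. The 29 filled points are members whose changes differed past the threshold, and the dotted line marks equal changes. Along the horizontal axis the filled points reach from Zfp61 at -2.78 to Zfp503 at 1.77.

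Members were also grouped by known role. Of all genes the shares called were 14.7% higher and 17.2% lower with both stimuli, 11.4% and 9.96% with IFN-γ, and 5.05% and 5.25% with E. coli. On a list of transcriptional activators and regulators were 16 members. With both stimuli, 4 of them were higher (Zfp143, Zfp281, Zfp384 and Zfp395), 2 were lower (Zfp362 and the NET family co-repressor Zfp703, log2 -1.09, SE 0.32, limma adjusted p = 0.0122), and the median log2 change was 0.40. With IFN-γ 1 was higher and 1 lower, with E. coli 0 were higher and 1 lower, and with IL-4 0 changed. Of 11 members that bind RNA, act on ribosomes or attach ubiquitin or SUMO, 2 changed with both stimuli: Zfp106, an RNA-binding protein, from 191.9, 210.2 and 195.7 to 377.8, 263.9 and 360.1 (log2 0.73, SE 0.15, limma adjusted p = 0.000739), and Zfp326, a splicing factor of the DBIRD complex, by -0.82 (SE 0.30, adjusted p = 0.0347). Neither changed past the threshold with a single stimulus. Of 5 members of chromatin complexes, the BTB protein Zfp131 was higher with both (log2 0.68, SE 0.19, limma adjusted p = 0.00984). The 4 KRAB members known to silence retroelements or imprinted genes (Zfp445, Zfp568, Zfp809 and Zfp932) were called in no comparison, and 3 of them could be tested in the Type 1 experiment. Zfp445 measured 309.8, 315.3 and 374.3 in ACs and 387.7, 345.7 and 474.6 with both (log2 0.27, SE 0.16, limma adjusted p = 0.212).

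Of 23 listed proteins through which KRAB members act, 21 were tested. With both stimuli 1 was higher and 4 lower, with IFN-γ 1 and 3, with E. coli 1 and 2, and with IL-4 0. The 4 lower with both stimuli are near the 17.2% of all genes. Trim28, which binds KRAB, measured 349 ± 27.9 in ACs and 410 ± 64.4 with both (SD, n = 3), with a log2 change of 0.22 (SE 0.16, limma adjusted p = 0.287). Setdb1, which methylates histone H3 lysine 9, was at 203 ± 61.3 in ACs and 93.0 ± 16.6 with IFN-γ (log2 -1.08, SE 0.29, adjusted p = 0.00915), and its partner Atf7ip fell from 685 ± 50.4 to 357 ± 82.7 (log2 -0.96, SE 0.16, adjusted p = 0.000201). The HP1 protein Cbx3 fell from 127 ± 10.2 to 75.6 ± 4.71 with E. coli and to 62.7 ± 2.58 with both, and Dnmt1, which maintains DNA methylation, from 108 ± 17.1 to 59.2 ± 17.97 with both. Chd3, a remodeller of the NuRD complex, rose from 129 ± 29.1 to 248 ± 44.5 with both (log2 0.95, SE 0.19, limma adjusted p = 0.000574).

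Many members lie near each other. Chromosome 7 held 48 of the 207, chromosome 17 25, and chromosomes 13 and 8 16 each. When members less than 1000000 bases apart were joined, the largest cluster held 14, of which 13 were KRAB members, at chr17:21008903-23564238. It includes Zfp160, Zfp52 and Zfp994. With E. coli 12 of the 14 were below 0, the median log2 change was -0.52 and 1 was called lower, and with both stimuli 9 were below 0, with 2 called lower. Of all 101 KRAB members tested, 84 were below 0 with E. coli and 72 with both. In a second cluster of that chromosome, chr17:32765496-33631779, with Zfp871, Zfp870, Zfp472, Zfp952, Zfp81, Zfp101 and Zfp414, all 7 members were below 0 with both stimuli (median -0.90, 1 called lower) and all 7 above 0 with IL-4 (median 0.30, 0 called by limma, edgeR or DESeq2). The difference of the changes did not pass the threshold for any of the 7. A cluster of 9 KRAB members at chr13:67312998-67755228 had medians of -0.14, -0.19 and 0.09 with E. coli, IFN-γ and both, with 1 called lower. These clusters were singled out after their values were seen.

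Promoters from RefSeq (GRCm38.p6, 250 bases before to 50 after the start) were matched for 167 members, with 205 promoters. They were searched on both strands for GAAA, any 2 bases and GAAA again, as in interferon response elements, and for the ETS (CCGGAAG), E-box (CACGTG), CRE (TGACGTCA) and AP-1 (TGANTCA) letters. The interferon response letters were in 3.1% of KRAB member promoters, 0.9% of other member promoters and 3.4% of all promoters, and ETS letters in 22.4%, 18.7% and 8.9%. E-box letters were in 10.2%, 4.7% and 7.2%, CRE letters in 5.1%, 2.8% and 1.8%, and AP-1 letters in 3.1%, 3.7% and 7.8%. Of 17 promoters of members higher with both stimuli, 0 held the interferon response letters, and of 25 promoters of members lower with both, 1 held them. The median CpG observed over expected was 0.624 for KRAB members and 0.788 for the others, against 0.384 over all 32851 promoters. That set includes the members and was not limited to genes expressed here. Being a member and being expressed are therefore not told apart, for CpG or for the letters.

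The 250 bases before the start are printed for Zfp281 and Zfp292, which rose most among members above 100, and for Zfp994, which fell and holds an interferon response match. Capitals mark matches, and positions count back from the start. Zfp281 (chr1:136624651-136624900, + strand) has no match. Zfp292 (chr4:34882949-34883198, - strand) has E-box letters at -45 to -40 and at -12 to -7. Zfp994 (chr17:22225615-22225864, - strand) has E-box letters at -160 to -155 and interferon response letters, on the other strand, at -62 to -53.
Zfp281: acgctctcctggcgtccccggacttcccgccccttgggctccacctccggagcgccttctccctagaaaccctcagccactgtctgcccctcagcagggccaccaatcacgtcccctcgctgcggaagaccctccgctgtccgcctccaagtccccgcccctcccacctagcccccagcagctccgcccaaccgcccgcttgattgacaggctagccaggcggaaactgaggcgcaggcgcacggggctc
Zfp292: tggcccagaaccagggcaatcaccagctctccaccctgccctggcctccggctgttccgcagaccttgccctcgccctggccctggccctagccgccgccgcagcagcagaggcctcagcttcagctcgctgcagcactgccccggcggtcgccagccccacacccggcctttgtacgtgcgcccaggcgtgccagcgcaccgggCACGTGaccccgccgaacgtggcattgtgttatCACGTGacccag
Zfp994: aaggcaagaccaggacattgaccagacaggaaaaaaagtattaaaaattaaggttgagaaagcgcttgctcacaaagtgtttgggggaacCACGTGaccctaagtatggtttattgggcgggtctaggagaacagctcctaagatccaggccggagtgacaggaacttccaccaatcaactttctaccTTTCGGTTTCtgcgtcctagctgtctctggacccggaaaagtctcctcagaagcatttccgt
Zfp281 and Zfp292 are GC rich (69.6% and 70.4% G or C), and Zfp994 is not (47.6%). A match to these letters is a description of the sequence, and no binding was measured.

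Libraries differed in other ways that moved with the stimuli. Reads on genes ranged from 779421 to 7782072, and the share of mitochondrial counts from 4.17% to 11.9%, highest in ACs of the Type 1 experiment (10.9% to 11.9%) and 6.05% to 7.38% with both stimuli. In the Type 1 experiment reads were 4234312 to 4844424 in ACs and 4759815 to 5078760 with E. coli. They were 2216917 to 4090386 with IFN-γ and 3294760 to 3733809 with both. A single read stood for a normalized count of 0.81 to 0.94 in ACs and 2.05 in replicate 3 of IFN-γ + ACs. The summed level of 9 eosinophil markers was 16332 to 17750 in ACs of the Type 1 experiment, 17546 to 18798 with E. coli, 10002 to 11251 with IFN-γ and 14440 to 17093 with both, and 4 of the 7 tested were lower with IFN-γ and 2 with both. In the IL-4 experiment it was 21178 to 23791 in ACs and 23952 to 26577 with IL-4. The summed level of 10 macrophage markers was 17708 to 22756 in ACs of the Type 1 experiment, 9983 to 12286 with E. coli, 29507 to 39166 with IFN-γ and 12384 to 13335 with both. In the IL-4 experiment that sum was 27523 to 40130 in ACs and 21954 to 36884 with IL-4. Single macrophage markers did not all follow the sum. Of the 10, 4 were lower with E. coli and 4 higher with IFN-γ. With both stimuli 4 were lower, while Adgre1 and Marco were higher. In the Type 1 experiment the 15 thymocyte markers summed to 158 to 222 in ACs and 93.8 to 161 with both, and 6 neutrophil markers to 50.6 to 64.8 and 151 to 240. The 5 B cell markers summed to 40.7 to 51.4 and 17.1 to 55.0, and the 5 mast cell markers to 5.64 to 20.3 and 35.6 to 63.5, in those 2 groups. With E. coli the thymocyte sum was 220 to 291 and the neutrophil sum 302 to 445. The B cell sum there was 51.9 to 89.9 and the mast cell sum 20.2 to 36.0. With IFN-γ the sums in that order were 92.3 to 160, 142 to 197, 13.2 to 34.9 and 26.7 to 66.5. At 0 in every library of a group were Rag2 in the ACs of both experiments, Rag1, Mcpt4, Mpo and Elane with E. coli, Mpo and Elane with IFN-γ, and Rag1, Dntt, Mcpt4, Mpo and Elane with both. Beads had been used against T and B cells before the culture and for Siglec-F after it. The part of other cells, of the eosinophil markers' own shift and of RNA quality in the changes of the members was not tested.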

How the data were processed

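The values deposited are a signal: for each library, the authors scaled a gene's read number by the DESeq2 size factor. The submitters' processing notes name FastQC 0.11.5, Trim Galore, cutadapt 1.10, TopHat2 2.1.0, Bowtie2 2.2.6, HTSeq 0.6.1, DESeq2 1.26.0 and GRCm38. Values were whole multiples of 1 step per library, and dividing by it gave whole reads for 100.0% of values (within 0.05 of a read). These reads served edgeR 4.0.16 (quasi-likelihood, TMM) and DESeq2 1.42.0 (Wald test) as alternatives. Reads on genes ranged from 779421 to 7782072 per library. All columns were mapped to a sample, and the ACs libraries were assigned to their experiment by the style of their labels.

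Symbols were found for 54409 of the gene identifiers. The comparisons were fitted in R 4.3.3 by limma 3.58.1, with a mean-variance trend in eBayes, to log2 of the normalized count plus 1, for genes with a mean of at least 10 over the libraries of the fit, after a check on simulated data. The Type 1 comparisons and the interaction used 12 libraries, IL-4 used 6, and the difference between the experiments used 18. Calls needed an adjusted p under 0.05 and 1.5-fold. The study describes 3 biological replicates per group, and the labels give no animal, so p-values measure the spread between these libraries.

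Named members were, in each comparison, up to 6 per direction past the threshold, for single stimuli without overlap between groups and averaging 30 or more in the higher group, and also the 12 highest by level, the members of the role lists, the co-repressor genes and those at the edge of the mean of 10. Zfp386, Zfp358, the members called without the shallow IL-4 libraries, Zfp719, Zfp52 and the members listed by pattern or cluster were added after their values were seen. The members and lists were chosen with earlier results of these data known. Chromosomal positions are those of the GRCm38 annotation. Python 3.11.15 with pandas 2.3.3 made the tables.

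Pseudocount, filter, scaling, replicate number, libraries of the fit, tool, fold threshold and left-out libraries were varied. Replicate numbers were not taken as pairing.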

Additional observations from a re-analysis of the deposited data

Results flagged for a closer look

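The members here are those whose change differed, past the threshold in limma, either from the sum of the single changes (interaction of IFN-γ and E. coli) or between the IL-4 and the IFN-γ + E. coli comparisons. Values are log2 differences, and no explanation was weighed. The interaction was positive for Zfp959 (1.54), Zfp369 (1.33), Zfp395 (1.31), Zfp160 (1.30), Zfp451 (1.104) and Zfp120 (0.82), and negative for Zfp771 (-1.25). Of these, Zfp959 kept its call under every alternative run.

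The change with IL-4 was above that with IFN-γ + E. coli for Zfp692 (3.73), Zfp934 (3.48), Zfp61 (2.92), Zfp637 (2.34), Zfp398 (2.11) and Zfp994 (2.05). It was below it for Zfp503 (-2.06), Zfp292 (-1.73), Zfp281 (-1.55), Zfp407 (-1.52), Zfp654 (-1.51) and Zfp276 (-1.39). Zfp398, Zfp994, Zfp292, Zfp281, Zfp407, Zfp654 and Zfp276 kept their calls under every alternative in which they were tested. Zfp692 and Zfp934 had means of 14.5 and 13.8 over the 18 libraries, near the limit of 10, and Zfp692 was at 0 in 2 of the 3 libraries with IFN-γ + E. coli.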

How the results depend on the processing

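No named call reversed its direction. For the named members, 1173 recomputed values counted as unchanged, 124 lost the call and 1 gained it. A change of sign in a member that was not called counted as unchanged. No named call was lost with a pseudocount of 5, edgeR or DESeq2. With a mean of at least 50 none was lost among the members still tested. Members under that mean, such as Zfp61 and Zfp930, were not tested there and could not lose a call. With every gene above 0 tested, E. coli gave 1 higher (1 without KRAB), IFN-γ 11 lower (7 KRAB), and the difference of effects 7 positive and 8 negative. With a mean of at least 50, IFN-γ gave 9 lower (5 KRAB), both stimuli 8 lower (4 KRAB, 4 other), and the difference 7 positive, with fewer genes tested. With the upper quartile scaling, E. coli gave 1 higher (1 without KRAB), IFN-γ 4 higher (4 without KRAB), both 9 higher (9 without KRAB) and 16 lower without KRAB, and the difference 10 negative. With all 18 libraries in one fit, E. coli gave 1 higher (1 without KRAB) and 3 lower (0 without KRAB), and the interaction 3 positive. With edgeR and with DESeq2, E. coli gave 11 lower (8 KRAB, 3 other) and both stimuli 1 KRAB member higher, and DESeq2 gave 10 positive interactions. With a pseudocount of 5, 2 members without KRAB were lower with E. coli. The cause of these moves was not tested beyond the number of genes tested.

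Leaving out 1 library at a time moved the E. coli counts over 0 to 3 higher and 1 to 7 lower (KRAB 0 to 0 higher and 1 to 5 lower, other 0 to 3 and 0 to 2), the IFN-γ counts over 4 to 9 and 9 to 21 (KRAB 0 to 0 and 7 to 14, other 4 to 9 and 2 to 9), and those with both over 11 to 15 and 20 to 32 (KRAB 0 to 1 and 13 to 20, other 10 to 15 and 5 to 12). The interaction ranged over 3 to 11 positive and 0 to 3 negative, the difference of effects over 6 to 21 and 9 to 17, and IL-4 over 0 to 3 higher and 0 to 4 lower, the last without both shallow libraries. Without replicate 3 of ACs in the Type 1 experiment, E. coli gave 0 higher and 1 lower, IFN-γ 4 and 9, the interaction 3 positive and the difference 6 positive. Without its replicate 1 or its replicate 2, E. coli gave 3 lower and the difference 10 negative. Without replicate 1 or 3 of E. coli + ACs, 0 were higher with E. coli.

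The pairing of same-numbered libraries was uneven. Over the 18 such pairs of the Type 1 experiment the mean r was 0.005 (-0.125 to 0.245). The 3 pairs of IFN-γ + ACs with IFN-γ + E. coli + ACs stood at 0.169, 0.184 and 0.245, against -0.162 to 0.02 for differently numbered libraries of those groups. In the IL-4 experiment the mean r was 0.041 (0.006 to 0.064, 3 pairs). Since most pairs of the other groups were under 0.1 and the labels do not say what a number marks, the numbers were not taken as pairing. With a replicate block, Zfp771 (log2 0.69) and Zfp266 (-0.76) lost their calls with E. coli, Zfp397 (0.65) with IFN-γ and Zfp61 (2.92) in the difference. Depth limits the IL-4 experiment most, where 3 reads stand for 15.4 and 16.1 in its replicate 3 libraries. In the Type 1 experiment the shallowest library was replicate 3 of IFN-γ + ACs, where 3 reads stand for 6.16.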
